A study of Mus musculus with 16 samples.

Results

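The 10 genes described here set the electrical excitability of skeletal muscle: 8 encode potassium channel subunits, and Scn4a and Clcn1 encode the sodium and chloride channels of the muscle fibre membrane. They were 10 of 28964 genes tested on 16 one-colour microarrays of mouse skeletal muscle, and were measured by 14 probes. Kcnab1 and Kcnn2 were picked for how their levels differed between the groups, so their values are given as a description and carry no test. The other 8 (Kcnn3, Kcna5, Kcna7, Kcnj2, Kcnj11, Kcnc4, Scn4a and Clcn1) were picked by function, and their differences were tested.

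The study compared wild-type (WT) mice with littermates lacking the cannabinoid 1 receptor (gene Cnr1) in skeletal muscle (CB1KO), on a standard diet (SD) or a diet high in fat and sugar (HFHS), with 4 arrays in each of the 4 groups. The CB1KO mice carry floxed Cnr1 and a Cre recombinase driven by the promoter of ACTA1, the skeletal muscle actin gene, which limits the deletion to muscle fibres. All mice were male and 21 to 23 weeks old after 15 weeks on their diet. Fat supplied 16.7% of the energy in SD and 49.2% in HFHS, and sugar 12.4% and 32.2%. The labels state neither which muscle was taken nor which animals, if any, of these groups received the insulin receptor antagonist S961 that the treatment text mentions. The growth text lists both genotypes as floxed and Cre-positive, and one diet tag disagrees with the titles for the CB1KO SD and WT HFHS arrays, so the groups follow the titles.

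A muscle fibre fires when voltage-gated sodium channels open, and it returns to rest as delayed-rectifier potassium channels open and chloride flows through ClC-1. Inward rectifiers hold the resting potential, ATP-sensitive potassium channels tie excitability to the energy state of the fibre, and small-conductance channels respond to intracellular calcium. Of the small-conductance channels, SK3 (Kcnn3) is known to be sparse in innervated adult muscle and to reappear after denervation.

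Levels are log2 processed intensities relative to the 75th percentile of the same array, so that 0 is the level of that percentile and a step of 1 doubles the intensity. Levels of different probes are not compared with each other. All SD arrays lay on one slide and all HFHS arrays on another, which means that slide effects and diet effects cannot be told apart. WT arrays filled one row of each slide and CB1KO arrays the other, so genotype and slide row cannot be told apart either. Between 56.7% and 75% of spots were well above background, none was saturated, and array pairs correlated at r = 0.868 to 0.993 over the tested genes. The share of spots well above background was 60.6% to 66.6% in WT SD and 56.7% to 63.3% in CB1KO SD. On HFHS it was 62.4% to 75% in WT and 59.6% to 69.2% in CB1KO, and its part in the levels of dim genes was not tested. The spread of log2 signal was lowest on CB1KO SD replicate 2 (SD 2.89) and highest on CB1KO HFHS replicate 1 (3.97), against 3.14 to 3.69 on the others. Cnr1 itself differed by -0.23 ± 0.46 on SD and -0.14 ± 0.46 on HFHS (log2, CB1KO minus WT, SE, n = 4 per group, limma adjusted p = 0.940 and 0.932) with overlapping groups. Whether its probe lies in the deleted part of the gene is not known here, so it does not check the labels. All 9 skeletal muscle fibre markers were well above background on every array. The labels do not say that the replicates of a group are separate animals, so p-values measure the spread between these samples.

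Kcnab1 encodes a beta subunit that attaches to Kv1 potassium channels inside the cell and can speed their inactivation. It has 3 annotated start sites in RefSeq (GRCm38.p6), all on the plus strand of chromosome 3. The 250 bases upstream of each are shown because Kcnab1 had the largest averaged genotype difference of the 10 genes, and because which start site its probe reflects was not examined. Capitals mark CANNTG, the core of the E-box bound by muscle basic helix-loop-helix factors.

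Kcnab1, chr3:64948962-64949211: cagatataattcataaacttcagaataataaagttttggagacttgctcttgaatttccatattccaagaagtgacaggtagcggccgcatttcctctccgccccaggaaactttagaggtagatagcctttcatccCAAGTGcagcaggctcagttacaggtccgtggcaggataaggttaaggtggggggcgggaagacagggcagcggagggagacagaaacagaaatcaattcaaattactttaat
Kcnab1, chr3:65108764-65109013: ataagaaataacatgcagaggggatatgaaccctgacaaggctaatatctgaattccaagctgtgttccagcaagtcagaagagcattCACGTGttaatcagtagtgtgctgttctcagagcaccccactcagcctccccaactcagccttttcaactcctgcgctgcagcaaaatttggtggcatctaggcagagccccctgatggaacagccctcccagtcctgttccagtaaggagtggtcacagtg
Kcnab1, chr3:65187853-65188102: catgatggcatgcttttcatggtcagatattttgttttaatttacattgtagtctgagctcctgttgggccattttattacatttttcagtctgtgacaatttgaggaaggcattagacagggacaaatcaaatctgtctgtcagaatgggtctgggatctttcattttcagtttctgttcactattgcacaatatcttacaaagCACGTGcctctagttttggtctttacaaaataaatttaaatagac

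Each of these stretches held 1 CANNTG, and in 2 of them it read CACGTG. On both strands together, a CANNTG was present in 66.22% of the 32851 RefSeq promoters searched over the same length, so its presence is common. The form CACGTG was present in 6.021% of them. Of the 10 genes, 8 had a RefSeq promoter entry, with 10 promoters in all, of which 8 held a CANNTG and 3 the form CACGTG. The form CAGCTG, which myogenic factors favour, was in 1 of the 10 promoters and in 13% of all. The cyclic AMP response element TGACGTCA was in none of the 10 and in 1.546% of all promoters, and the MEF2 motif was in 1 of the 10 and in 2.919% of all. A match is a description of the letters and not a binding site.

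Kcnab1 was lower in CB1KO muscle on both diets. In WT SD muscle its level was 1.70, 0.92, 1.17 and 1.63, and in CB1KO SD muscle -0.22, -0.39, 0.49 and -0.10. In WT HFHS muscle it was 0.89, 0.83, 0.30 and 1.05, and in CB1KO HFHS muscle 0.03, -0.55, -0.68 and -0.88. Within each diet all 8 CB1KO arrays lay below all WT arrays of that diet. Of all genes with a value on every array, 2.98% lay as fully below on SD and 6.71% on HFHS. Across diets the groups met, since CB1KO SD replicate 3 (0.49) was above WT HFHS replicate 3 (0.30). The group means were 1.35 ± 0.38 in WT SD, -0.06 ± 0.39 in CB1KO SD, 0.77 ± 0.33 in WT HFHS and -0.52 ± 0.39 in CB1KO HFHS (SD, n = 4 each).

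The Kcnab1 difference between genotypes was -1.41 on SD and -1.29 on HFHS (log2), and -1.35 averaged over the diets, which is 2.55-fold lower. The difference in these differences was 0.12, and -0.27 with arrays weighted by quality. Both genotypes had lower Kcnab1 means on HFHS than on SD, by -0.59 in WT and -0.46 in CB1KO, with overlapping arrays. The summed level of the fast fibre markers overlapped between genotypes on both diets (6551 to 7959 in WT SD and 5138 to 8674 in CB1KO SD, 4666 to 6387 in WT HFHS and 4868 to 7465 in CB1KO HFHS, in units of the 75th percentile). On SD the overlap came from CB1KO replicate 2, one of the arrays of unusual signal spread, and the other 3 CB1KO arrays (5138 to 5679) lay below all WT arrays. Of the 10 fast fibre markers 9 were lower in CB1KO on SD and 7 on HFHS, and 10 of 10 in the average, none past the threshold. The summed level of the slow fibre markers was 23.1 to 264 in WT SD and 337 to 902 in CB1KO SD, without overlap, and 35.8 to 1066 in WT HFHS and 44.6 to 717 in CB1KO HFHS. On SD the slow fibre markers were thus higher where Kcnab1 was lower, and the part of either fibre type's markers in the Kcnab1 values was not tested. In whole muscle, fewer cells of a type and less RNA per cell cannot be told apart.

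**Figure D1:**
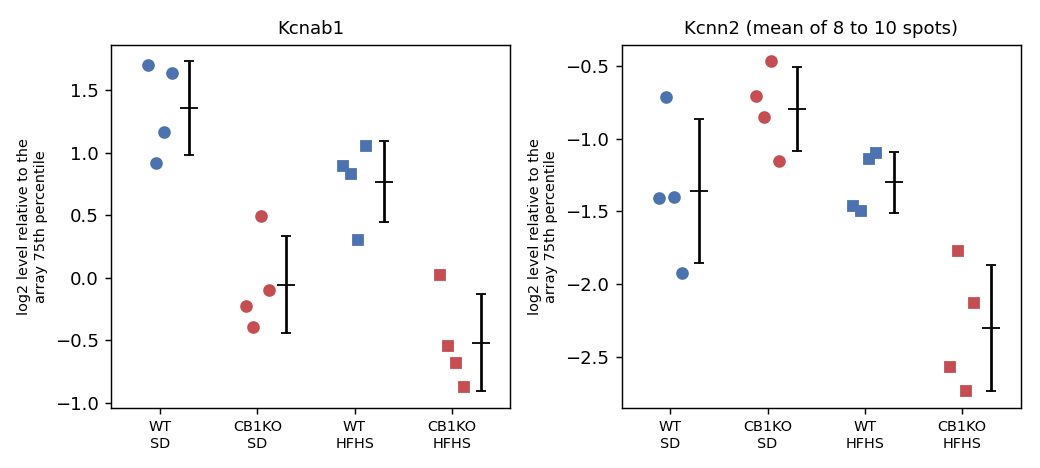
Levels of Kcnab1 and Kcnn2 on each array (log2 relative to the 75th percentile of the array; circles SD, squares HFHS, blue WT, red CB1KO), with the group mean and SD in black (n = 4). Kcnab1 is lower in CB1KO on both diets, and the CB1KO HFHS arrays hold the 3 lowest Kcnn2 levels.

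The genes whose levels ran most like Kcnab1 over the 16 arrays were Ccdc6 (Pearson r = 0.952), Spag5 (0.949) and Pcx (0.943), out of 17293 compared. Pcx encodes pyruvate carboxylase, which feeds carbon into the citric acid cycle. Its group means were 4.62 in WT SD, 3.93 in CB1KO SD, 4.30 in WT HFHS and 3.71 in CB1KO HFHS. These arrays share slides and group differences, so the likeness describes a shared pattern over the 4 groups.

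The Kv1 alpha subunits to which such beta subunits attach were represented by Kcna5 and Kcna7. Kcna5 encodes Kv1.5, a delayed rectifier found in muscle and in vessel walls. Its level was -0.83, -0.20, -0.54 and -1.63 in WT SD, -0.17, -1.07, 0.34 and 0.01 in CB1KO SD, -0.45, -0.20, -0.67 and -0.60 in WT HFHS, and -0.78, -0.48, 0.19 and 0.07 in CB1KO HFHS. The groups overlapped on both diets, with 3 CB1KO arrays above all WT arrays on SD and 2 on HFHS. Averaged over the diets Kcna5 differed by 0.41 ± 0.24 (SE, 95% interval -0.10 to 0.92, limma adjusted p = 0.460). A dimmer Kcna5 probe gave 0.36 (adjusted p = 0.399 over all probes).

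Kcna7 encodes Kv1.7, a Kv1 channel of skeletal muscle and heart. Its level ran from 3.64 to 4.38 in WT SD, 3.64 to 4.44 in CB1KO SD, 3.72 to 4.49 in WT HFHS and 3.83 to 4.32 in CB1KO HFHS. The 4 groups covered the same range, and the genotype difference averaged over the diets was 0.03 ± 0.15 (SE, 95% interval -0.30 to 0.35, limma adjusted p = 0.943). Its sign turned with the mean of both Kcna7 probes (-0.02) and ran from -0.04 to 0.10 when one array was left out.

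Kcnc4 encodes Kv3.4, a fast-inactivating, voltage-gated potassium channel. The level was 2.68, 3.35, 2.96 and 2.67 in WT SD, 3.26, 2.26, 2.92 and 2.61 in CB1KO SD, 2.57, 2.86, 2.58 and 2.89 in WT HFHS, and 2.60, 2.67, 2.44 and 2.35 in CB1KO HFHS. WT and CB1KO arrays overlapped on both diets. The averaged difference was -0.18 ± 0.15 (SE, 95% interval -0.50 to 0.13, limma adjusted p = 0.583).

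The small-conductance, calcium-activated channels are Kcnn2 (SK2) and Kcnn3 (SK3). Kcnn2 was lowest in the CB1KO mice on HFHS. Its level, the mean of 8 to 10 spots on each array after outlier spots were set aside, was -1.41, -0.71, -1.40 and -1.92 in WT SD, and -0.70, -0.85, -0.46 and -1.15 in CB1KO SD. On HFHS it was -1.47, -1.5, -1.14 and -1.10 in WT, and -2.57, -1.78, -2.74 and -2.13 in CB1KO. All CB1KO HFHS arrays lay below all WT HFHS arrays and below all CB1KO SD arrays, but CB1KO HFHS replicate 2 was above WT SD replicate 4. Of all genes with a value on every array, 6.71% lay as fully below for genotype on HFHS and 1.2% for diet in CB1KO.

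The Kcnn2 difference between genotypes was 0.57 on SD and -1.0 on HFHS (log2), an interaction of -1.57. The difference between diets was 0.06 in WT and -1.51 in CB1KO. These values chose the gene and are not tested. Spots of the probe on one array varied with an SD of 0.0653 to 0.205 (median 0.0946), and arrays of one group varied with an SD of 0.21 to 0.50. With the background correction and scaling both changed (normexp, then quantile normalization), the interaction was -1.14 and the diet difference in CB1KO -0.95. On HFHS the summed levels of smooth muscle markers (87.9 to 133 in WT, 75.5 to 86.7 in CB1KO) and of endothelial markers (71.6 to 86.4 in WT, 58.1 to 67.9 in CB1KO) were also lower in every CB1KO array, whereas nerve and Schwann cell markers overlapped (26.0 to 35.2 and 20.6 to 31.2). Between diets in CB1KO the smooth muscle and endothelial sums overlapped, at 64.8 to 134 and 50.5 to 74.4 on SD. All 6 endothelial markers and 5 to 6 of the 6 smooth muscle markers were well above background on each of these arrays, and their part in the Kcnn2 values was not tested.

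Of 17293 genes compared, the one whose levels ran most like Kcnn2 over the 16 arrays was Kcnj2 (Pearson r = 0.813), itself one of the 10 genes. B3galt1 (0.804) and Rskr (0.803) followed. As for Kcnab1, the arrays share slides and group differences, so the likeness describes a shared pattern over the 4 groups. B3galt1 encodes a galactosyltransferase that builds glycan chains, and its group means were -0.85 in WT SD, -1.09 in CB1KO SD, -1.07 in WT HFHS and -2.29 in CB1KO HFHS.

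Kcnn3 is the other small-conductance channel. Its level was -3.54, -2.86, -3.18 and -2.57 in WT SD, -2.24, -2.80, -2.32 and -1.96 in CB1KO SD, -2.60, -2.41, -2.20 and -3.02 in WT HFHS, and -2.80, -2.02, -1.86 and -2.06 in CB1KO HFHS. On SD 3 of 4 CB1KO arrays lay above all WT arrays, and so did 3 of 4 on HFHS. The difference was 0.71 ± 0.27 on SD (SE, limma adjusted p = 0.473), 0.37 ± 0.27 on HFHS (adjusted p = 0.714) and 0.54 ± 0.19 averaged over the diets (95% interval 0.14 to 0.94, adjusted p = 0.209).

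The averaged Kcnn3 difference passed the threshold with arrays weighted by quality (0.72, limma adjusted p = 0.0123) and without the pair of arrays of unusual signal spread (0.72, adjusted p = 0.0386). With the mean of both Kcnn3 probes it was 0.15 (adjusted p = 0.762), and on HFHS 0.087 (adjusted p = 0.927). Normexp with quantile normalization gave an averaged difference of 0.35 (adjusted p = 0.266). A dimmer Kcnn3 probe, well above background on 8 arrays against 15 for the one reported, gave -0.24 (adjusted p = 0.796 over all probes), so the probes differed in sign.

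The inward rectifiers were Kcnj2 (Kir2.1), which holds the resting potential, and Kcnj11 (Kir6.2), the pore of the ATP-sensitive channel. Kcnj2 was -1.07, -0.94, -1.11 and -1.31 in WT SD, -0.82, -1.54, -0.74 and -1.12 in CB1KO SD, -1.34, -1.15, -0.98 and -0.97 in WT HFHS, and -1.80, -1.17, -1.85 and -1.31 in CB1KO HFHS. The group means were alike in WT SD (-1.11), CB1KO SD (-1.06) and WT HFHS (-1.11), and lower in CB1KO HFHS (-1.53), where 2 of the 4 arrays lay within the WT HFHS range. On HFHS the genotype difference was -0.42 (95% interval -0.85 to 0.00, limma adjusted p = 0.561), and the diet difference in CB1KO was -0.47 (adjusted p = 0.460). Neither passed the threshold, and the averaged genotype difference was -0.19 ± 0.14 (SE, adjusted p = 0.563).

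Kcnj11 was measured by 2 probes that gave different results. The brighter probe read 1.53, 1.54, 1.89 and 1.70 in WT SD, 1.5, 1.81, 1.37 and 0.97 in CB1KO SD, 1.22, 1.45, 1.69 and 1.57 in WT HFHS, and 1.45, 1.61, 1.35 and 1.78 in CB1KO HFHS. Its groups overlapped, with an averaged genotype difference of -0.09 ± 0.12 (SE, 95% interval -0.36 to 0.17, limma adjusted p = 0.746).

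The dimmer Kcnj11 probe was also well above background on all 16 arrays. It read -0.60, -0.58, -0.57 and -0.38 in WT SD, and -1.13, -1.0, -0.85 and -1.18 in CB1KO SD. On HFHS it read -1.12, -1.02, -0.96 and -0.75 in WT, and -1.49, -1.55, -1.63 and -1.35 in CB1KO. All CB1KO arrays lay below all WT arrays of the same diet, and all HFHS arrays below all SD arrays of the same genotype. Among all genes with a value on every array, 2.98% lay as fully below on SD and 6.71% on HFHS for genotype, and 3.34% in WT and 1.2% in CB1KO for diet. These shares count each gene by its brightest probe, and the share over all probes was not computed.

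With each of 40653 probes tested on its own, an analysis chosen after the values were seen, this Kcnj11 probe fell by 0.53 ± 0.086 in CB1KO averaged over the diets (log2, SE, 1.44-fold lower, 95% interval -0.71 to -0.34, limma adjusted p = 0.0156). In that comparison 0.748% of all probes passed. On single diets the difference was -0.51 (SD, adjusted p = 0.233) and -0.54 (HFHS, adjusted p = 0.111), and between diets it was -0.43 in WT (adjusted p = 0.658) and -0.46 in CB1KO (adjusted p = 0.210). The call was kept whichever array was left out (adjusted p = 0.0121 to 0.0422). It was lost on the values of the deposited series table (-0.43, adjusted p = 0.198), and the mean of the 2 probes differed by -0.31 (adjusted p = 0.154). No probe sequences were used here, so which transcripts each probe reads was not examined, and the difference between the probes was not tested.

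**Figure D2:**
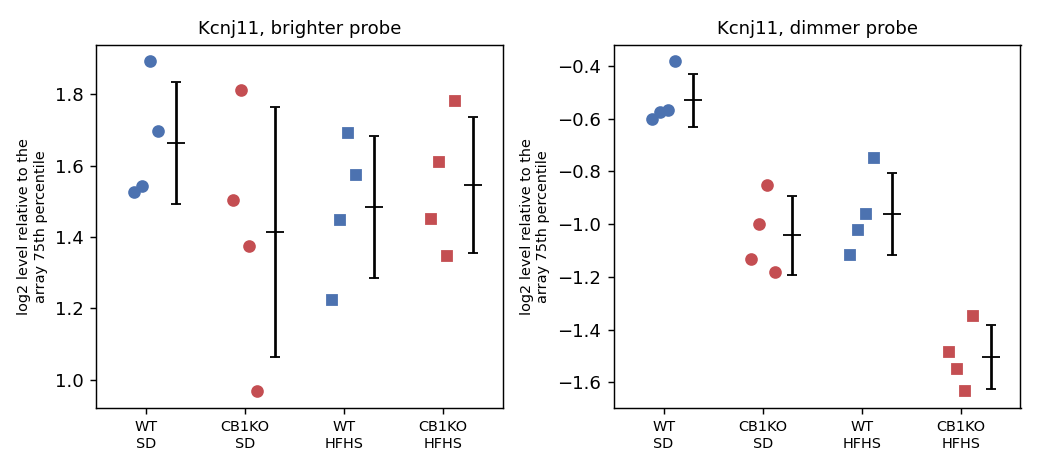
Levels of the 2 Kcnj11 probes on each array (log2 relative to the 75th percentile of the array; circles SD, squares HFHS, blue WT, red CB1KO), with the group mean and SD in black (n = 4). The brighter probe overlaps between groups, while the dimmer probe is lower in CB1KO on each diet and lower on HFHS in each genotype.

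Scn4a encodes Nav1.4, the sodium channel that carries the muscle action potential. Its level was 1.91, 2.04, 2.10 and 2.23 in WT SD, 1.89, 1.99, 1.99 and 1.42 in CB1KO SD, 1.73, 1.84, 2.04 and 1.83 in WT HFHS, and 1.42, 1.69, 1.41 and 1.67 in CB1KO HFHS. On HFHS all CB1KO arrays lay below all WT arrays, as did those of 6.71% of the 28882 genes with a value on every array. On SD CB1KO replicate 4 was far lower than the other 3. The difference was -0.31 ± 0.15 on HFHS (SE, limma adjusted p = 0.558) and -0.28 ± 0.10 averaged over the diets (95% interval -0.50 to -0.06, adjusted p = 0.238), neither past the threshold. The median of all genes was -0.12 in the same averaged comparison, and -0.02 after normexp and quantile normalization.

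Clcn1 encodes ClC-1, whose chloride conductance steadies the resting fibre. Its level was 2.20, 2.08, 2.06 and 2.14 in WT SD, 2.0, 2.15, 2.23 and 1.87 in CB1KO SD, 1.94, 1.87, 1.72 and 2.24 in WT HFHS, and 1.99, 1.89, 1.95 and 1.97 in CB1KO HFHS. All 16 arrays lay between 1.72 and 2.24, the narrowest range of the 14 probes. The averaged difference was -0.02 ± 0.087 (SE, 95% interval -0.21 to 0.16, limma adjusted p = 0.917), and its sign turned under quantile normalization (0.03).

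**Figure D3:**
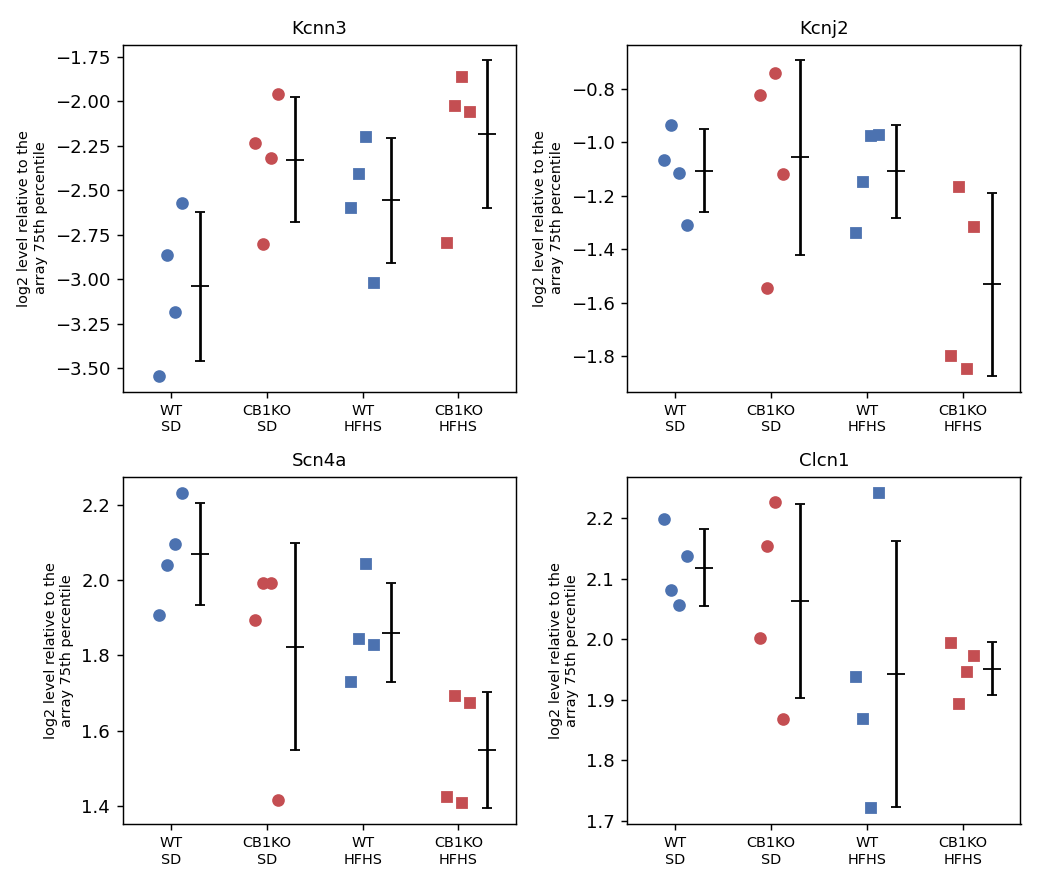
Levels of Kcnn3, Kcnj2, Scn4a and Clcn1 on each array (log2 relative to the 75th percentile of the array; circles SD, squares HFHS, blue WT, red CB1KO), with the group mean and SD in black (n = 4). Scn4a on HFHS is the one case of these panels in which the CB1KO and WT arrays of a diet do not overlap.

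Of the 8 genes picked by function, 0 passed the limma threshold of adjusted p below 0.05 in the genotype comparison averaged over the diets, where 0.708% of all genes passed (205 of 28964). Kcnn3 and Scn4a were at an unadjusted p below 0.05 in it, 2 of 8, against 4126 of the 28964 genes. The 8 averaged differences ran from -0.28 to 0.54 with a median of -0.06, against -0.12 over all genes, and 3 were higher and 5 lower. None of the 8 passed on SD, where 0.00345% of genes did, or on HFHS, where 0.235% did. At an unadjusted p below 0.05 were 1 of 8 on SD (Kcnn3), against 2527 of the 28964 genes, and 0 of 8 on HFHS, against 2597. The counts were also 0 of 8 for the interaction (0% of genes), for diet in WT (0%) and for diet in CB1KO (0.0276%), where Kcnj2 was the 1 gene of the 8 at an unadjusted p below 0.05, against 2770 of all genes. The widest 95% interval of the 8, that of Kcna5, reached 0.51 to either side in the averaged comparison and 0.72 on a single diet. These intervals are not adjusted for the number of genes tested. Larger differences could therefore also miss the threshold with 4 arrays per group, as the averaged Kcnn3 difference of 0.54 did (limma adjusted p = 0.209).

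**Figure D4:**
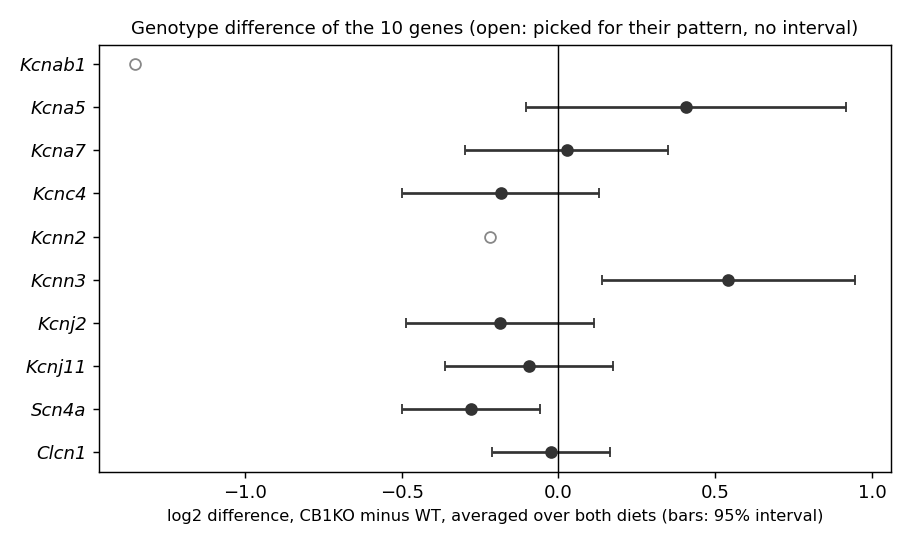
Difference between CB1KO and WT averaged over both diets for the 10 genes (log2; filled points with 95% intervals from limma for the 8 genes picked by function, open points without intervals for Kcnab1 and Kcnn2). Kcnab1 is at -1.35, Kcnn3 is the highest at 0.54, and the Scn4a interval lies below 0 although its adjusted p is 0.238.

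The other genes of muscle excitability were examined through lists of 135 genes, of which 112 were tested. In the averaged genotype comparison 2 of them rose and 0 fell, or 1.79% of those tested against 0.708% of all genes. The lists were chosen with earlier results of these data known, so these shares are a description and not a test of the lists. The lists' median difference was -0.10 against -0.12 over all genes, and 42 of the 112 were higher in CB1KO. On HFHS 2 were higher and 0 lower past the threshold (0.235% of all genes), and no listed gene passed on SD, in the interaction or between diets. At an unadjusted p below 0.05 were 16 of the 112 on SD (2527 of the 28964 genes), 27 on HFHS (2597 genes) and 29 in the averaged comparison (4126 genes).

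Of the Kv alpha subunits 23 were tested, 6 higher and 17 lower (median -0.26), none past the threshold. Kcnf1, a silent subunit that forms no channel by itself, had the lowest value of p of this list with -1.27 ± 0.31 (SE, limma adjusted p = 0.0857). It passed the threshold in 7 of 13 alternatives, and after normexp and quantile normalization it was -0.54 (adjusted p = 0.0103). The accessory subunits were 3 higher and 3 lower. Among them Kcnab3, a relative of Kcnab1, differed by -0.96 (adjusted p = 0.335) and was well above background on 7 arrays (-0.14 after normexp and quantile normalization), and Kcne4 by 0.48 (adjusted p = 0.437). The Kcne4 means were -1.81 in WT SD, -0.77 in CB1KO SD, -2.15 in WT HFHS and -2.23 in CB1KO HFHS, so its average stands for neither diet.

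The calcium-activated list held 5 tested genes, 1 higher and 4 lower. Kcnma1, the large-conductance channel, differed by -0.34 (limma adjusted p = 0.397), and Kcnmb2, one of its beta subunits, by -0.62 (adjusted p = 0.694) with 7 arrays well above background (-0.033 after normexp and quantile normalization). The Kcnma1 means were 2.21 in WT SD, 2.16 in CB1KO SD, 2.56 in WT HFHS and 1.93 in CB1KO HFHS. Of the inward rectifier and ATP-sensitive subunits 2 were higher and 7 lower (median -0.22). Kcnj12 (Kir2.2), which forms channels with Kir2.1, differed by -0.38 (adjusted p = 0.268), and Kcnj3 by -1.08 (adjusted p = 0.370), or -0.26 after normexp and quantile normalization. Of the 9 tandem-pore potassium channels 2 were higher and 7 lower. Kcnk5, well above background on 9 arrays, differed by 1.01 (adjusted p = 0.144), or 0.56 after normexp and quantile normalization (adjusted p = 0.0399), and Kcnk6 by 0.39 (adjusted p = 0.354). The Kcnk5 means were -4.54 in WT SD, -4.26 in CB1KO SD, -4.31 in WT HFHS and -2.57 in CB1KO HFHS.

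Of the sodium channel subunits 3 were higher and 6 lower. Scn4b, a beta subunit of sodium channels, differed by -0.35 (limma adjusted p = 0.145). The chloride channels were 4 higher and 8 lower, with Clcn6 at -0.30 (adjusted p = 0.286) and Clic4 at 0.33 (adjusted p = 0.342). The Na,K-ATPase subunits and their regulators were 6 higher and 3 lower. Among them Fxyd5 differed by 0.30 (adjusted p = 0.387). Excitation-contraction coupling genes were 3 higher and 12 lower (median -0.21). Cacna2d1, a subunit of the calcium channel that senses the action potential, differed by -0.49 ± 0.12 (SE, adjusted p = 0.0715), and Jph2, which holds the membranes of the junction together, by -0.39 (adjusted p = 0.146).

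Both genes past the threshold were in the list of genes that respond to denervation, of which 12 of 16 were higher and 4 lower (median 0.64). Chrna1 encodes the alpha subunit of the acetylcholine receptor. Its level was 2.07, 1.77, 2.36 and 3.01 in WT SD, 4.10, 2.84, 2.98 and 4.29 in CB1KO SD, 2.32, 2.32, 2.69 and 2.50 in WT HFHS, and 3.74, 5.06, 5.77 and 5.65 in CB1KO HFHS. The genotypes overlapped on SD and were apart on HFHS, with CB1KO fully above, as in 3.37% of genes with a value on every array. On HFHS Chrna1 rose by 2.59 (limma adjusted p = 0.0237). That call was lost without WT HFHS replicate 1, 2, 3 or 4 or CB1KO HFHS replicate 2, 3 or 4 (adjusted p = 0.0642 to 0.115), and with only the HFHS groups in the fit (adjusted p = 0.0745). Averaged over the diets it rose by 1.92 ± 0.31 (SE, adjusted p = 0.0167). Gadd45a, a stress-induced gene that rises on denervation, was 2.97, 2.78, 3.36 and 3.32 in WT SD, 3.10, 3.05, 3.51 and 3.55 in CB1KO SD, 2.67, 2.63, 2.78 and 2.93 in WT HFHS, and 3.68, 3.67, 4.07 and 3.99 in CB1KO HFHS. It rose by 0.65 ± 0.12 averaged over the diets (SE, adjusted p = 0.0291) and by 1.1 on HFHS (adjusted p = 0.0180). The averaged call was lost without WT SD replicate 1, CB1KO SD replicate 4, WT HFHS replicate 1, 2 or 4, or CB1KO HFHS replicate 3 or 4 (adjusted p = 0.0554 to 0.0764). It was also lost in a model of genotype plus slide without their interaction (0.65, limma adjusted p = 0.0901). Slide coincides with diet, so this model adds no correction for slide and only drops the interaction. The HFHS call of Gadd45a was lost without WT HFHS replicate 1, 2 or 3 or CB1KO HFHS replicate 3 or 4 (adjusted p = 0.0549 to 0.0938).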

How the data were processed

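Total RNA (200 ng per sample) from mouse skeletal muscle was hybridised to one-colour Agilent arrays. Each scanner file holds the processed intensity of every spot from Feature Extraction 11.5.1.1, per the file headers, with background removed array by array and no scaling across arrays. The score of each spot in the deposited series table equalled each array's log2 processed intensity, centred on its mean and divided by its SD, to within 0.005 (column medians -0.27 to -0.15).

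Processed intensities were put on the log2 scale and set relative to the 75th percentile of their array. Outlier spots were set to missing, repeated spots averaged, and probes kept when well above background on at least 4 of 16 arrays. Of the gene values tested, 0.018% were then missing. The brightest probe stood for each gene, and other probes of the 10 genes were tested on their own. Of 55681 probes, 28026 were named from RefSeq (GRCm38.p6) by their accession, and the others kept the file's name. The array grid uses an older mouse build, so promoters were matched by symbol.

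A model with 1 mean per group over all 16 arrays was fitted with limma 3.58.1 in R 4.3.3 and tested on simulated data. Adjusted p is the two-sided Benjamini-Hochberg value over all genes, with a threshold of 0.05. Array number and spread limit precision. The 10 genes and all lists were chosen with earlier results of these data known. Named were the 10 genes and, of each excitability list, every gene past the threshold in any comparison, or else the 2 with the lowest p in the averaged genotype comparison, some of which are not reported here. Alternatives covered scaling, background, the deposited table, probe filters, outlier spots, probe rule, variance model, array weights, replicate block, genotype plus slide without interaction, signal spread, samples in the fit and left-out arrays.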

Additional observations from a re-analysis of the deposited data

Results flagged for a closer look

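On the dimmer Kcnj11 probe, WT SD replicate 4 (-0.38) stood apart from the other 3 arrays of its group (-0.60, -0.58 and -0.57): its gap to the nearest was 0.851 of the range of the group, above Dixon's 95% critical value for 4 samples. It was 1 of 56 groups of 4 values checked, and chance flags about 1 group in 20.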

How the results depend on the processing

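The averaged Kcnab1 difference kept its sign and stayed between -1.44 and -1.21 under every alternative run. The same-numbered arrays of different groups did not deviate together (24 pairs, r = -0.754 to 0.609, 8 over 0.1), so the replicate numbers were not taken to pair samples, and 5 of 16 arrays correlated best with their own number. With the replicate number as a block, the averaged genotype comparison called 59 of all genes instead of 205, HFHS 36 instead of 68 and diet in CB1KO 0 instead of 8, and the dimmer Kcnj11 probe was at -0.53 with a limma adjusted p of 0.0520. Counts of all genes called moved with array weights (averaged 1961, SD 55, HFHS 2096, diet in WT 112, diet in CB1KO 124), with the signal spread as a covariate (averaged 1752, SD 150, HFHS 355, diet in CB1KO 15) and without both arrays of unusual spread (averaged 891, SD 236, HFHS 193, interaction 11, diet in WT 1, diet in CB1KO 25). Of the 8 genes picked by function 1 (Kcnn3) passed with array weights and without those arrays, and 0 under the other alternatives to the averaged comparison. Kcnn3 had no value with the filter on all 16 arrays. Quantile normalization gave 369 averaged, 23 on SD and 2 for diet in CB1KO. Normexp with quantile normalization, which used the median spot signal, gave 391 averaged, 23 on SD, 121 on HFHS, 1 interaction and 19 for diet in CB1KO. The deposited table gave 25 on SD and 3 for diet in CB1KO, no filter 135 averaged and 4 for diet in CB1KO, and the filter on all 16 arrays 7 on SD and 20 for diet in CB1KO. The mean of a gene's probes gave 3 on SD, trend and robust variances 5 on SD, 106 on HFHS and 1 for diet in CB1KO, and only the groups compared 0 on SD, 43 on HFHS and 0 for diet in CB1KO. Leaving out one array gave 0 to 26 on SD (main count 1), 20 to 133 on HFHS, 47 to 617 averaged, 0 to 11 for the interaction (main count 0), 0 to 1 for diet in WT (main count 0) and 0 to 30 for diet in CB1KO. The averaged Clcn1 difference turned to 0.0252 (quantile normalization), 0.0528 (normexp) and 0.0478 (deposited table), and ran from -0.0601 to 0.0268 with one array left out. The averaged Kcna7 difference turned to -0.0203 with the mean of its probes and ran from -0.0412 to 0.0973 with one array left out. Of the 18 listed genes that the naming rule took from below the threshold, 9 passed it under at least 1 alternative. Other averaged differences below the threshold that moved by over 1.5 times, leave-one-out fits aside, ran from 0.33 to 0.64 (Kcna5), -0.22 to -0.12 (Kcnc4) and -0.23 to -0.06 (Kcnj2). That of Kcnj11 ran from -0.31 to -0.0087, where -0.31 came from the mean of its probes and not from the brighter probe alone. The cause of these changes was not tested. Fitting the groups compared alone was not run for the averaged comparison and the interaction, which use all groups. The model of genotype plus slide without their interaction was run for the averaged comparison.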
